A study of Mus musculus with 16 samples.

Results

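The nuclear genes of respiratory complex I were examined in mRNA collected from SNc dopaminergic neurons of control and MCU-KO mice. All genes in the count files with a symbol starting in Ndufa, Ndufb, Ndufc, Ndufs or Ndufv were taken, apart from assembly factors (Ndufaf), Ndufa4l2 and pseudogenes. This left 37 genes of the 25006 listed. The symbols matched 39 genes, of which Ndufa11b and Ndufb4c are annotated as processed pseudogenes and were left out.

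Control mice were DAT-Cre +/- and came from a cross of DAT-Cre +/+ with C57/BL6 mice, and MCU-KO mice were DAT-Cre +/- MCU fl/fl, with 8 mice and 8 libraries of each. Both genotypes carried Cre under the control of the dopamine transporter gene, received an AAV that expresses a tagged ribosomal protein only where Cre is present, and were 45 days old, 30 days after the injection. The floxed Mcu allele, and any background that came with it, was present in the MCU-KO mice alone, so that its part cannot be told apart from the loss of MCU, the pore subunit of the mitochondrial Ca2+ uniporter. The tagged ribosomes were immunoprecipitated from dissected substantia nigra (the RiboTag method), and each library is the mRNA of 1 mouse.

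Complex I takes electrons from NADH, passes them along iron-sulfur clusters to ubiquinone and pumps protons across the inner mitochondrial membrane. Its matrix arm holds the N module, where NADH is oxidized, and the Q module, where ubiquinone is reduced. Its membrane arm has a proximal and a distal part, which hold the proton channels. The core subunits carry out the chemistry, and the accessory subunits assemble and stabilize the complex. The channel-forming core subunits are encoded in mitochondrial DNA, and all other subunits are encoded in the nucleus. SNc dopaminergic neurons have a high demand for oxidative phosphorylation during pacemaking, and impaired complex I is a known feature of Parkinson's disease. Ca2+ that enters the matrix stimulates the dehydrogenases that supply complex I with NADH.

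Library totals ranged from 18999107 to 22016362 counts in control mice and from 14129527 to 20582204 in MCU-KO mice. The lowest total, of MCU-KO mouse 8, stood apart from the others. Mcu itself, the targeted gene, ranged from 120 to 828 normalized counts (counts divided by DESeq2 size factors) in control mice, with a median of 401, and from 5.82 to 410 in MCU-KO mice, with a median of 246. In 3 MCU-KO mice Mcu was below the lowest control and in 5 it was within the control range. Its log2 fold change was -1.19 ± 0.59 (SE, adjusted p = 1.00, edgeR), and the counts were deposited per whole gene, so that reads from the remaining exons of a floxed allele are included. Mcu counts therefore do not check each genotype label, and every direction given below rests on the labels. The dopaminergic markers Th and Slc6a3 averaged 114253 and 62800 normalized counts in control mice, and the oligodendrocyte marker Mbp averaged 35084.

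No complex I subunit gene passed the test between the genotypes. Of the 37 genes, 0 had an adjusted p below 0.05 in edgeR's quasi-likelihood test, against 22 of all 12390 genes tested (0.178%), and 1, Ndufa3, had an unadjusted p below 0.05, against a background of 4.41%. DESeq2 also called 0 of them, where it called 0.557% of all genes with an adjusted p, and 3 had an unadjusted p below 0.05, against a background of 5.37% in DESeq2. The genotypes overlapped in normalized counts for each of the 37 genes, where 0.258% of all genes tested did not overlap. The fitted difference was below 0 for 29 of 37 genes, against a background of 49.6%. The median log2 fold change of the 37 genes was -0.06, which is a difference of -3.83% in MCU-KO mice, and the median of all genes tested was 0.0025. The 37 genes were counted in the same libraries, so that a library with high or low values of many of them moves this count as a whole.

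**Figure D1:**
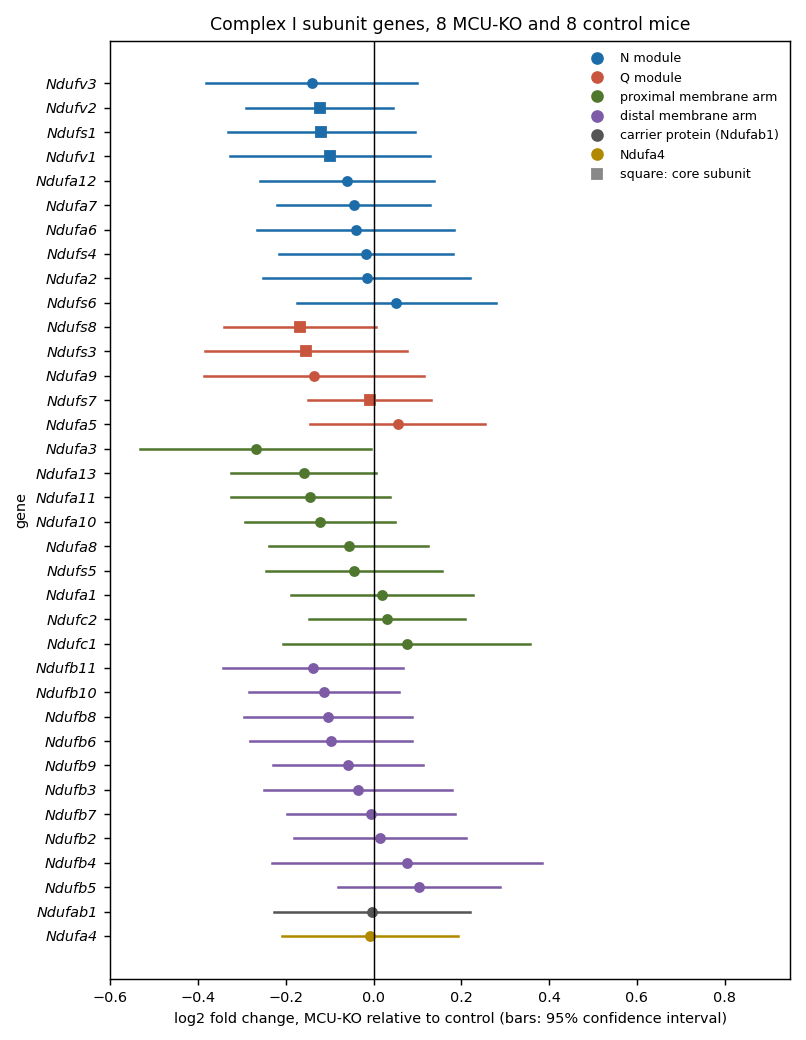
Log2 fold change of 36 complex I subunit genes, MCU-KO relative to control, with 8 mice per genotype. Points are edgeR estimates, bars are 95% confidence intervals and squares are core subunits. Of the 36 points, 28 lie left of 0, and 35 of the intervals include 0, all but that of Ndufa3.

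The absence of calls came with narrow intervals. The least abundant value of any of these genes in any library was 1448 counts. The biological coefficient of variation, the spread between mice of a genotype that edgeR estimates, ranged from 0.122 to 0.223 over the 37 genes, with a median of 0.155, against 0.478 for all genes tested. The 95% confidence intervals of all 37 genes lay within 1.5-fold in either direction. The widest bounds were 0.692-fold for a lower and 1.305-fold for a higher level in MCU-KO mice. The interval was narrowest for Ndufs7, from 0.902-fold to 1.095-fold.

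The subunits of the N module, which binds NADH and FMN and begins the chain of iron-sulfur clusters, included 9 of 10 genes below 0, with a median log2 fold change of -0.05. Ndufv1 carries the NADH and FMN site. Its normalized counts were 7172, 8531 and 10708 (lowest, median, highest) in control mice and 6643, 8053 and 10373 in MCU-KO mice, with a log2 fold change of -0.10 ± 0.11 (SE, adjusted p = 1.00, edgeR). The 2 ranges overlapped, with 3 MCU-KO mice below the lowest control and 5 of 8 below the control median.

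Ndufv2, the other iron-sulfur subunit at the NADH site, had 13215, 13927 and 15727 normalized counts in control mice and 10781, 13127 and 15733 in MCU-KO mice. The log2 fold change was -0.12 ± 0.08 (SE, adjusted p = 1.00, edgeR). The MCU-KO range enclosed the control range, with 5 MCU-KO mice below the lowest control and 1 above the highest. Ndufs1, the largest core subunit, which holds several iron-sulfur clusters, had 2274, 2644 and 2969 normalized counts in control mice and 2032, 2504 and 2799 in MCU-KO mice (log2 fold change -0.12 ± 0.10 SE, adjusted p = 1.00, edgeR). In 7 of 8 MCU-KO mice it was below the control median, with 3 below the lowest control. The other genes of the module, Ndufv3, Ndufs4, Ndufs6, Ndufa2, Ndufa6, Ndufa7 and Ndufa12, had log2 fold changes between -0.14 (Ndufv3) and 0.05 (Ndufs6). Ndufs6 was the 1 gene of the module above 0.

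The Q module, which reduces ubiquinone, had the lowest median of the modules, with a log2 fold change of -0.14 and 5 of 6 genes below 0. This was not tested against the other modules. Ndufs8 holds iron-sulfur clusters that pass electrons toward the ubiquinone site. Its normalized counts were 7853, 8877 and 10085 in control mice and 6818, 8179 and 8921 in MCU-KO mice, with a log2 fold change of -0.17 ± 0.08 (SE, adjusted p = 1.00, unadjusted p = 0.057, edgeR). In 7 of 8 MCU-KO mice it was below the control median, and in 3 below the lowest control.

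Ndufs3, a core subunit that holds no iron-sulfur cluster, had 2323, 3383 and 3653 normalized counts in control mice and 2464, 2890 and 3286 in MCU-KO mice (log2 fold change -0.15 ± 0.11 SE, adjusted p = 1.00, edgeR). All 8 MCU-KO mice were below the control median of Ndufs3 but none was below the lowest control. Ndufs7, which holds the iron-sulfur cluster next to ubiquinone, had 13157, 14693 and 16085 normalized counts in control mice and 13455, 14598 and 16127 in MCU-KO mice. The genotypes nearly coincided, at a log2 fold change of -0.01 ± 0.07 (SE, adjusted p = 1.00, edgeR), and Ndufs7 had the smallest biological coefficient of variation of the 37 genes, at 0.122. Of the accessory subunits, Ndufa9, which binds NADPH beside the ubiquinone site, was at -0.14 and Ndufa5 at 0.06.

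All 7 nuclear core subunits were below 0, with a median log2 fold change of -0.12, and 22 of 30 accessory genes were below 0, with a median of -0.04. Apart from Ndufs7 and Ndufs8, the core subunits have coding transcripts longer than 1 kb, and the 2 classes were not tested against each other.

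The proximal membrane arm joins the matrix arm to the proton channels. Of its 9 genes, 6 were below 0, with a median log2 fold change of -0.06, and its values ran from the lowest of the 37 genes to 0.08 (Ndufc1). Ndufa3, a small accessory subunit in the membrane, was the lowest. Its normalized counts were 10799, 13033 and 19559 in control mice and 9532, 10163 and 16648 in MCU-KO mice, with a log2 fold change of -0.27 ± 0.13 (SE, adjusted p = 1.00, unadjusted p = 0.045, edgeR). In 5 of 8 MCU-KO mice it was below the lowest control, and the highest values of the genotypes were those of control mouse 6 and MCU-KO mouse 8. Without control mouse 6 the log2 fold change of Ndufa3 was -0.17, and without MCU-KO mouse 8 it was -0.37.

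Ndufa13, also known as GRIM-19, which runs from the membrane into the Q module, had 16659, 19021 and 21156 normalized counts in control mice and 15113, 16515 and 20814 in MCU-KO mice. The log2 fold change was -0.16 ± 0.08 (SE, adjusted p = 1.00, unadjusted p = 0.057, edgeR). The genotypes overlapped, with 4 MCU-KO mice below the lowest control. Part of the Ndufa13 reads cannot be assigned with certainty, since 28.5% of the 50-base stretches of its transcripts also occur in transcripts of another gene, mainly the overlapping gene Tssk6. Tssk6 itself was counted at no more than 125 reads in any library, which does not show how many reads the genes share. Ndufa11, an accessory subunit that helps hold complex I in supercomplexes, had 15251, 16700 and 21070 normalized counts in control mice and 13362, 16191 and 18012 in MCU-KO mice, at a log2 fold change of -0.14 ± 0.09 (SE, adjusted p = 1.00, edgeR). Its genotypes overlapped, with 2 MCU-KO mice below the lowest control and 5 of 8 below the control median.

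Ndufa1, a small membrane subunit encoded on the X chromosome, had 8208, 9647 and 11721 normalized counts in control mice and 8638, 9078 and 13624 in MCU-KO mice (log2 fold change 0.02 ± 0.10 SE, adjusted p = 1.00, edgeR). The median was lower and the highest value higher in MCU-KO mice, and the sign of its fitted difference turned when some single mice were left out. Ndufa8, Ndufa10, Ndufs5 and Ndufc2 lay between -0.12 (Ndufa10) and 0.03 (Ndufc2). All 8 MCU-KO mice were below the control median of Ndufa10.

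In the distal membrane arm, which holds the outer proton channels, 7 of 10 genes were below 0, with a median log2 fold change of -0.05. Ndufb11, the other X-linked gene, had the smallest p of this arm. Its normalized counts were 8896, 10168 and 12927 in control mice and 7574, 8811 and 11913 in MCU-KO mice, with a log2 fold change of -0.14 ± 0.10 (SE, adjusted p = 1.00, edgeR). The genotypes overlapped, with 4 MCU-KO mice below the lowest control. Ndufb5 had the highest value of the 37 genes, at 0.10 ± 0.09 (SE, adjusted p = 1.00, edgeR). Ndufb2, Ndufb3, Ndufb4, Ndufb6, Ndufb7, Ndufb8, Ndufb9 and Ndufb10 lay between -0.11 (Ndufb10) and 0.08 (Ndufb4).

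A pair of genes belongs to none of these groups. Ndufab1, the mitochondrial acyl carrier protein, which sits in both arms and also serves fatty acid synthesis, had a log2 fold change of -0.0031 ± 0.11 (SE). Ndufa4, which keeps its complex I name but is a subunit of cytochrome c oxidase (complex IV), was at -0.0086 ± 0.10 (SE). Leaving Ndufa4 out gave 28 of 36 genes below 0 and a median of -0.06.

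The deviation of each mouse from the mean of each gene showed that single mice were high or low in most subunits at once. In control mice, 12, 16, 19, 16, 22, 34, 35 and 22 of the 37 genes were above their median over all 16 mice (mice 1 to 8). In MCU-KO mice the numbers were 12, 6, 18, 4, 24, 13, 9 and 34. Control mice 6 and 7 and MCU-KO mouse 8 were thus high in nearly all subunits, and MCU-KO mice 2, 4 and 7 were low in most.

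**Figure D2:**
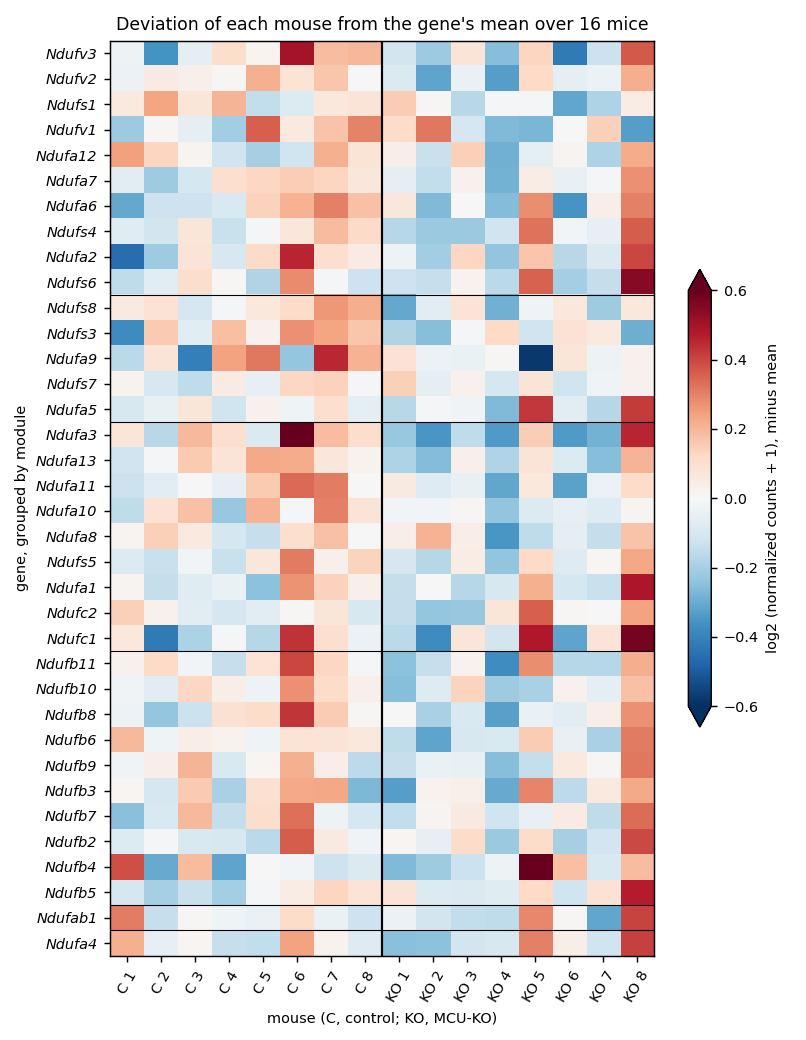
Deviation of each of the 16 mice (columns) from the mean of each of 36 genes (rows, grouped by module), in log2 of normalized counts plus 1. Red cells are above and blue cells below the gene's mean, and the columns of control mouse 6 and MCU-KO mouse 8 are red over most rows while that of MCU-KO mouse 4 is blue over most rows.

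The pattern of MCU-KO mouse 8 was not equal across modules. Its mean log2 deviation was 0.24 over the N module, 0.28 over the proximal arm and 0.29 over the distal arm, but -0.01 over the Q module. Control mouse 6 had 0.16, 0.26 and 0.23 in the same 3 groups and 0.09 in the Q module. In control mouse 3, by contrast, the Q module was at -0.19, with the N module at 0.0038. MCU-KO mice covered a smaller range in the Q module (-0.13 to 0.03) than control mice (-0.19 to 0.22).

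The 37 genes together took 1.90% to 2.30% of all counts in control mice, with a median of 2.02%, and 1.78% to 2.38% in MCU-KO mice, with a median of 1.89%. The genotypes overlapped, although MCU-KO mice 1, 2, 4 and 7 were below the lowest control. The highest share was that of MCU-KO mouse 8, the library with the fewest counts. Genes with coding transcripts shorter than 1 kb took 12.2% to 14.6% of counts in control mice and 11.7% to 15.1% in MCU-KO mice, again highest in MCU-KO mouse 8 and, among controls, in mouse 6. The summed level of 30 astrocyte, oligodendrocyte and microglia markers ranged from 76728 to 146095 normalized counts in control mice and from 90034 to 168394 in MCU-KO mice. MCU-KO mouse 4, with the lowest share of complex I counts, had the highest glial sum, and control mouse 7, with 35 genes above their median, had the lowest. Other mice did not follow this order: MCU-KO mice 1, 2 and 7 had low shares (1.86%, 1.82% and 1.85%) with low glial sums (90034, 92133 and 93930), and MCU-KO mouse 8 had the highest share with a glial sum of 126181. Xist, a transcript of female cells, was at 75.7 normalized counts in control mouse 6 and 65.5 in MCU-KO mouse 4. In no other mouse was it above 9.97. The part of transcript length, library size, sex and glial mRNA in the differences between mice was not tested.

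**Figure D3:**
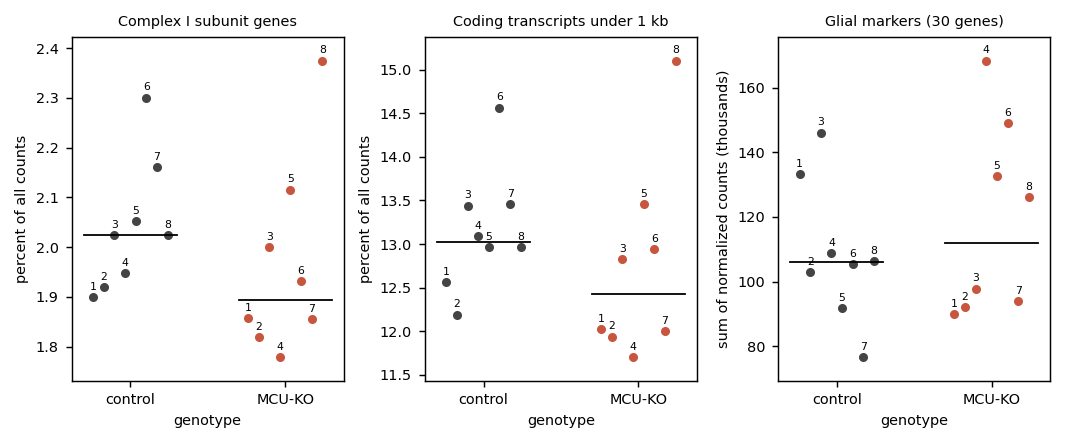
Share of all counts taken by the 37 complex I subunit genes (left), by genes with coding transcripts under 1 kb (middle), and summed normalized counts of 30 glial markers (right, in units of 1000). Each point is 1 mouse, numbered, and lines are medians, at 2.02% and 1.89% for control and MCU-KO in the left panel. The axes do not start at 0.

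The count of genes below 0 moved with single mice. It was 22 of 37 without MCU-KO mouse 4 (median log2 fold change -0.01) and 23 without control mouse 6 (median -0.03), and 35 without MCU-KO mouse 8 (median -0.09), where 4 genes had an unadjusted p below 0.05, against a background of 4.47% in the same fit. Without control mouse 7 it was 26, with a median of -0.03. With the log2 level of Xist as a covariate it was 29 of 37, with a median of -0.06. With the mean log2 level of the glial markers as a covariate it was 21 of 37, with a median of -0.02. In that fit 5 of 7 core subunits were below 0, and the median of the N module was 0.00204. None of the 37 genes passed the threshold in any of these fits.

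In the fits of the cell type markers, 7 of 10 astrocyte, 7 of 10 oligodendrocyte and 7 of 9 tested microglia markers were above 0, all 4 tested endothelial markers were below 0, 4 of 6 tested markers of other neurons were above 0, and 6 of 10 dopaminergic markers were below 0. None of these markers passed the test, and none was at 0 in all libraries. The sum of the dopaminergic markers ranged from 264271 to 342855 normalized counts in control mice and from 228319 to 389210 in MCU-KO mice. Fewer cells of a type and less mRNA per cell cannot be told apart in these precipitates.

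Levels of different subunits were compared per kb of coding transcript, in the control mice alone. All 37 genes are strongly expressed: their median was 11416 normalized counts per kb, against 171 for all genes tested, and 35 of 37 lay above the 90th percentile of all genes. The highest and the lowest differed 43.6-fold, and 32.2-fold without Ndufa4, which belongs to complex IV. Ndufa4 led with 43826 ± 4621 (SD, n = 8) normalized counts per kb, ahead of Ndufa11 with 32335 ± 4064 and Ndufb8 with 31329 ± 4485. The SDs of Ndufa11 and Ndufb8 overlapped. At the other end were Ndufs1 with 1005 ± 88.7 (SD, n = 8), Ndufab1 with 1713 ± 180 and Ndufb4 with 1790 ± 304, of which Ndufab1 and Ndufb4 did not differ beyond their SD. Fold changes of these extremes were small in both directions, at -0.0086 for Ndufa4, -0.14 for Ndufa11, -0.10 for Ndufb8, -0.12 for Ndufs1, -0.0031 for Ndufab1 and 0.08 for Ndufb4 on the log2 scale.

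**Figure D4:**
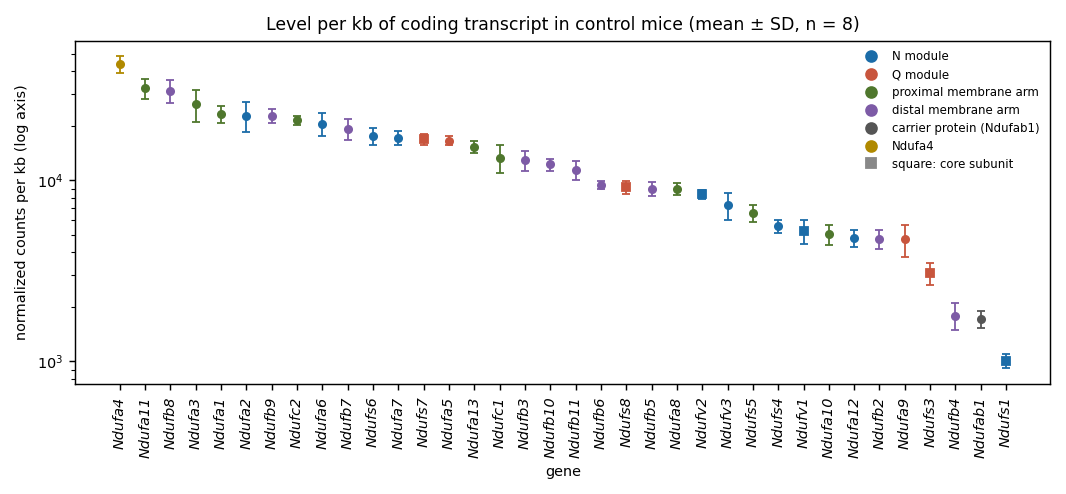
Normalized counts per kb of coding transcript in control mice (mean ± SD, n = 8, log axis) for 36 genes in descending order. Colors mark the module and squares the core subunits. Values run from 43826 (Ndufa4) to 1005 (Ndufs1), and most of the core subunits lie in the right part of the plot.

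Median levels per kb were 15334 for the proximal arm, 11828 for the distal arm, 7832 for the N module and 7114 for the Q module. Core subunits had a median of 5253 and accessory genes of 13134. These levels depend on the length used for each gene. Per kb of all annotated exons, Ndufa1 led with 23268 normalized counts, Ndufa4 was the 4th with 16851, Ndufa11 the 5th with 16138 and Ndufb8 the 19th with 6772, while Ndufb4, Ndufab1 and Ndufs1 remained the 3 lowest. The ratio of the highest to the lowest was then 71.3. On that scale the proximal arm (13249) was again above the distal arm (7067), the Q module (5255) was above the N module (4281), and core subunits (3566) were again below accessory genes (7168). Levels also depend on reads shared with other genes. More than 15% of the 50-base stretches of 8 genes also occur in transcripts of other genes, most in Ndufb6 (31.6%, shared with Smim27) and Ndufa13, while 14 genes share none. Smim27 itself was counted at no more than 244 reads in any library. Ndufb4, one of the lowest, shares 18.3% of them with its copies. The pseudogene Ndufb4c, all of whose stretches occur in Ndufb4 or another copy, was counted at no more than 11 reads in any library. How reads that match several genes were counted is not given. The low counts of Smim27 and Ndufb4c therefore do not show how many reads were shared.

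Genes below 0 were found among short and long transcripts. Of the 23 genes with coding transcripts shorter than 1 kb, 17 were below 0, with a median log2 fold change of -0.04, and of the 14 longer ones 12 were below 0, with a median of -0.12. Across the 37 genes, log2 fold change and log2 length had a Pearson's r of -0.16, given as a description of genes that share their libraries.

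The genes lie on 15 chromosomes. RefSeq (GRCm38.p6) gave 35 promoters, from 250 bases before to 50 after the start site, for 33 of the 37 genes. The short motif of YY1, AGATGGCGG, was found in 11.4% of these promoters, against 1.07% of all 32851 promoters in the table and 2.28% of those of genes tested here. These counts are 4 of 35 promoters, and the differences were not tested. The motif contains the letters ATG, and whether its matches span the start of translation was not tested. In all 4 genes the motif lay on the coding strand just after the start site of transcription. It began 30 bases after this site in Ndufa9, 25 in Ndufs7, 34 in Ndufs6 and 36 in Ndufs4. The 30 bases around each motif are shown because this position is shared, with the motif in capitals, 5′ to 3′.
Ndufa9 (chr6:126849095-126849124, minus strand): ttgtgggagaAGATGGCGGccgccgtccgc
Ndufs7 (chr10:80249464-80249493, plus strand): gccgaggccaAGATGGCGGcgctggcgggt
Ndufs6 (chr13:73328433-73328462, minus strand): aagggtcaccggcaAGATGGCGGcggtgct
Ndufs4 (chr13:114388045-114388074, minus strand): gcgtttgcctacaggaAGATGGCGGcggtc

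The log2 fold changes of these 4 genes were -0.14 for Ndufa9, -0.01 for Ndufs7, 0.05 for Ndufs6 and -0.02 for Ndufs4. The confidence interval of each spanned both signs, so that their directions were not resolved. Whether carrying the motif went with a direction was not tested. The NRF1 motif GCATGCGC was found in 8.57% of the promoters (Ndufa6, Ndufa8 and Ndufa11), against 2.71% of all promoters and 5.05% of those of tested genes. The ETS motif CCGGAAG was in 11.4%, against 8.86% and 16.8%, and the ERR motif AAGGTCA in 8.57%, against 4.72% and 3.22%. CCAAT was in 28.6%, against 37.4% of each, and TATAAA in 14.3%, against 13.6% and 6.89%. All motifs were read on both strands and counted separately, whether or not they overlapped. A match describes letters in this window and shows no binding.

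The 100 bases before the start site are shown for 3 of the genes with the smallest p values, Ndufa3, Ndufs8 and Ndufv2, with matches to any of these motifs in capitals. Those of Ndufa13 and Ndufa11, which overlap annotated exons, are not shown.
Ndufa3 (chr7:3617273-3617372, plus strand): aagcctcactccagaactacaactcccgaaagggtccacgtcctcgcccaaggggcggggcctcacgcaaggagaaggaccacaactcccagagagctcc
Ndufs8 (chr19:3912775-3912874, minus strand): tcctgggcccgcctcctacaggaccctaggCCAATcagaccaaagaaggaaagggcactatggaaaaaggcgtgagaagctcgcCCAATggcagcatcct
Ndufv2 (chr17:66101560-66101659, minus strand): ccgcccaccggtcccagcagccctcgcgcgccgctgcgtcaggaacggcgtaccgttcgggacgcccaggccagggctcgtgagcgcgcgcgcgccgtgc
Ndufs8 holds CCAAT at 2 places, and the 100 bases shown for Ndufa3 and Ndufv2 hold none of the 6 motifs. The longer promoter window of Ndufa3 does hold TATAAA.

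The mitochondrially encoded partners of these subunits could not be compared. All 13 mitochondrial genes named in the files, with the 7 of complex I among them, are listed at 0 counts in every library. The factors that assemble complex I, none of which stays in the finished enzyme, gave 10 of 17 genes below 0, with a median log2 fold change of -0.02 and no gene past the threshold. Of these, Ndufaf7, a mitochondrial arginine methyltransferase, had the smallest p, with normalized counts of 1070, 1716 and 2293 in control mice and 445, 1349 and 2143 in MCU-KO mice. Its log2 fold change was -0.36 ± 0.23 (SE, adjusted p = 1.00, edgeR). Timmdc1, which takes part in building the membrane arm, was at 0.64 ± 0.42 (SE, adjusted p = 1.00, edgeR), on at most 447 normalized counts. Both overlapped between the genotypes.

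Among subunits of the other complexes of oxidative phosphorylation, 34 of 39 genes were below 0, with a median log2 fold change of -0.08, and none passed the threshold. Sdhb, the iron-sulfur subunit of complex II, had 12143, 14414 and 18347 normalized counts in control mice and 10738, 13325 and 14481 in MCU-KO mice (log2 fold change -0.18 ± 0.09 SE, adjusted p = 1.00, edgeR). Atp5d, the delta subunit of ATP synthase, had 16070, 17650 and 20318 normalized counts in control mice and 12860, 16600 and 17875 in MCU-KO mice (log2 fold change -0.14 ± 0.08 SE, adjusted p = 1.00, edgeR). Among the cytosolic ribosomal proteins, which are short and abundant transcripts of another compartment, 53 of 78 genes were below 0. Their median was -0.04, and 1 of them had an adjusted p below 0.05 in edgeR. Of all 746 tested genes with coding transcripts under 1 kb, 57.9% were below 0, with a median of -0.03. Of these 746 genes, 4 had an adjusted p below 0.05 in edgeR, against 0.178% of all genes tested.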

How the data were processed

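The authors deposited raw counts per gene, with no normalization, made by adapter trimming (Trim Galore and cutadapt are named), STAR alignment to mm10 and HTSeq counting against Ensembl genes. Tool versions, the annotation release and the strand setting are not given in the sources used here, and without a strand setting overlapping genes cannot be told apart. The study describes 9 MCU-KO mice for this assay, of which 8 were analysed here.

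Symbols, coordinates and lengths came from GENCODE M21 on GRCm38, which is mm10, with symbols for 24942 identifiers. The level per kb used the median length of the principal coding transcripts. Promoters came from RefSeq. Counts of 16 libraries, with genotypes taken from the labels, were fitted with edgeR 4.0.16 in R 4.3.3 (filterByExpr, TMM normalization, quasi-likelihood test), calling a gene at a Benjamini-Hochberg adjusted p below 0.05 among 12390 genes. Standard errors came from the coefficient and its F statistic. Size factors of DESeq2 1.42.0 gave normalized counts. The alternatives were DESeq2 itself, limma-voom (limma 3.58.1), further scalings and filters, a replicate block, a glial or Xist covariate, and leaving out each mouse. Depth gave a floor of 3 counts, 0.136 to 0.212 CPM, which covers counting error only. Mice with the same number did not deviate together, with correlations between -0.06 and 0.03. The fits were also run on simulated data with set fold changes, and the share of these that they found is not given here.

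The members and gene lists were chosen with earlier results of these data known. Genes were named by rule: in full, those with the smallest p overall and in each module, the core subunits and the X-linked genes; in short, those with the highest and lowest level per kb, Ndufa4 and Ndufab1; and from the assembly factors and the other complexes, those with the smallest p. Values of some genes are not reported here, though counts and medians over a group include them. Figures were drawn with matplotlib 3.10.9.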

Additional observations from a re-analysis of the deposited data

Results flagged for a closer look

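Values of single mice stood apart from the other 7 of their genotype in 9 of 86 comparisons, by the gap to the nearest mouse relative to the range of the group (Dixon's test). Chance alone gives about 1 in 20 where comparisons are independent, which these are not, since the genes were counted in the same libraries. In control mouse 6, Ndufa3 had 19559 normalized counts, against 13893 in the next highest control, Ndufb11 had 12927, against 10678, and Ndufb2 had 14741, against 11918. In MCU-KO mouse 8, Ndufb5 had 13829, against 10834 in the next highest MCU-KO mouse, and Ndufb7 had 15057, against 12372. The total of 14129527 counts in MCU-KO mouse 8 also stood apart, the next lowest total of its genotype being 19897268. In MCU-KO mouse 5, Ndufa9 had 4315, against 6279 in the next lowest mouse, and Ndufb4 had 2728, against 1999 in the next highest. In MCU-KO mouse 4, Ndufa10 had 8246, against 9182 in the next lowest.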

How the results depend on the processing

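None of the 37 genes passed the threshold in any of 26 alternatives. All genes called numbered 22, against 90 with DESeq2 and 14 with the replicate block, which also gave 29 genes below 0 and a median of -0.0609. The labels do not pair the mice, and no mouse correlated best with its own number. Leaving out each mouse gave 22 to 35 genes below 0, medians of -0.0884 to -0.0142, and module medians of -0.0888 to -0.0172 (N), -0.181 to -0.0888 (Q), -0.0921 to -0.0142 (proximal) and -0.0891 to -0.0102 (distal). The glial covariate gave module medians of 0.00204 (N), -0.0878 (Q), -0.0202 (proximal) and -0.00306 (distal), so that the N module was no longer below 0.

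Of 962 log2 fold changes of single genes in the alternatives, 66 changed sign, in 18 genes, and 19 genes kept their sign. With the glial covariate the sign changed for Ndufa2 (0.0639), Ndufa6 (0.0751), Ndufa7 (0.018), Ndufb3 (0.0203), Ndufb7 (0.00631), Ndufs5 (0.0129), Ndufs7 (0.0393) and Ndufv1 (0.00444). With at least 10 counts in every mouse it changed for Ndufab1 (0.00508) and Ndufb7 (0.002), with library totals for Ndufab1 (0.00345) and Ndufb7 (0.00124), and for Ndufab1 with no filter (0.000708) and with upper-quartile scaling (0.00434). The cause was not tested. Leaving out each mouse gave ranges that crossed 0 for Ndufa1 (-0.0578 to 0.066), Ndufa2 (-0.0788 to 0.0621), Ndufa4 (-0.0731 to 0.0312), Ndufa5 (-0.0058 to 0.0955), Ndufa6 (-0.0884 to 0.00507), Ndufab1 (-0.0665 to 0.046), Ndufb2 (-0.0461 to 0.0782), Ndufb3 (-0.0789 to 0.00876), Ndufb4 (-0.0223 to 0.146), Ndufb7 (-0.0567 to 0.0504), Ndufc1 (-0.011 to 0.156), Ndufc2 (-0.0197 to 0.0656), Ndufs4 (-0.0732 to 0.0151), Ndufs5 (-0.0812 to 0.00451), Ndufs6 (-0.0338 to 0.103) and Ndufs7 (-0.028 to 0.0142).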
